A study of Mus musculus with 8 samples.

Results

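The genes of the STING DNA sensing pathway were followed through tumors grown in mice with and without autophagy. The 7 genes were taken by name from the deposited matrices: Mb21d1 (the file's name for cGAS), Tmem173 (STING), Tbk1, Ikbke, Irf3, Trex1 and Aim2, out of 19024 gene symbols listed. The rule that picks them uses no measured value, although earlier results of these data were known when the list was made. All hosts were C57BL/6 mice with 1 copy of UbcreERT2, a tamoxifen-activated Cre recombinase driven by the ubiquitin promoter, and carried either intact Atg7 (Atg7+/+) or floxed Atg7 (Atg7f/f in the strain label, Atg7∆/∆ in the sample names). Every host, wild type included, received tamoxifen for 4 days. MB49 cells, a male mouse urothelial cancer line, were placed under the skin of the back 1 week later, with 2 tumors per mouse. Tumors were collected 3 weeks after that and dissociated, passed through a density gradient for mononuclear cells, and profiled with a 5' droplet kit. The deletion was in the host, so the injected line was the same in both groups, and with a ubiquitous promoter it was not limited to a cell type. There were 4 libraries per genotype (wild type 1, 2, 5 and 6, deleted 3, 4, 7 and 8). The labels do not say which tumors came from the same mouse, so p-values measure the spread between these 8 libraries.

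cGAS binds DNA in the cytosol and makes the messenger cGAMP, which activates STING on the endoplasmic reticulum. STING then recruits TBK1 and the related kinase IKK epsilon (Ikbke), TBK1 phosphorylates IRF3, and IRF3 switches on interferon beta and a set of early response genes. TREX1 degrades cytosolic DNA upstream of this pathway, and AIM2 is a separate DNA sensor that builds an inflammasome. In tumors the pathway is best known for its activity in dendritic cells and macrophages that take up tumor DNA. Autophagy is a route by which cells dispose of cytosolic DNA and of STING itself.

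Levels are mean UMIs (counted transcript molecules) per 10000 UMIs of a cell, averaged within each class and library. Of 29496 deposited cells 28577 were kept, and the median per library was 1742 to 9583 UMIs per cell. Wild type libraries had a mean of these medians of 7319 ± 1624 (SD, n = 4), against 2942 ± 1069 (SD, n = 4) for deleted libraries. Cells were grouped into 7 classes with enough cells in both genotypes: malignant-like, monocyte/macrophage-like, dendritic-like, neutrophil-like, T-like, NK-like and fibroblast-like. Malignant-like cells made up 58.3% ± 10.8 (SD, n = 4) of wild type and 5.20% ± 4.66 (SD, n = 4) of deleted libraries. These shares follow tissue dissociation and the density gradient. In malignant-like cells 5 or 6 of the 7 listed urothelial markers with rows in the files were detected in every library. The libraries fell into 2 sets that draw their cell barcodes from different lists, libraries 1 to 4 and libraries 5 to 8, and each set held both genotypes. Any 2 libraries shared at most 44 cell barcodes. Several clusters inside the malignant-like and monocyte/macrophage-like classes were largely specific to 1 or 2 libraries. Clusters 6 and 8 held most monocyte/macrophage-like cells of libraries 1, 2 and 4, and clusters 10 and 11 those of libraries 3 and 8. Clusters 11 and 12 were spread more widely. Cluster 11 held 285, 634, 111 and 1214 cells in libraries 5, 6, 7 and 8, and cluster 12 held 189, 288, 508 and 516 in libraries 2, 5, 6 and 8. A cluster of 1044 cells, 1015 of them in library 3, was left unnamed. Such unnamed cells made up 6.98% ± 13.2 (SD, n = 4) of deleted and 0.0342% ± 0.0685 (SD, n = 4) of wild type libraries.

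Atg7, the deleted gene itself, passed the test in no class. It was furthest apart in monocyte/macrophage-like cells, where wild type libraries averaged 0.282 ± 0.128 (SD, n = 4) against 0.0939 ± 0.0628 (SD, n = 4) in deleted hosts. The libraries did not overlap, as for 2.24% of genes lower in that class, and the limma adjusted p was 0.477. In malignant-like cells, which carry the tumor line's own Atg7, it was 0.241 ± 0.128 (SD, n = 4) and 0.245 ± 0.151 (SD, n = 4). Neutrophil-like cells held 0.423 ± 0.178 (SD, n = 4) and 0.552 ± 0.206 (SD, n = 4). T-like cells held 0.161 ± 0.0864 and 0.167 ± 0.0496 (SD, n = 4 each). Dendritic-like (0.156 and 0.0451), NK-like (0.164 and 0.0616) and fibroblast-like cells (0.148 and 0.0994) had lower means in deleted hosts. A 5' read does not show whether the floxed part of the transcript is present, so these levels check the labels weakly.

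The stretches upstream of 3 members are shown, since Ikbke and Tbk1 were the 2 that passed the test over all cells and Mb21d1 held a motif match. The STING gene Tmem173 was not searched. The sequences are from RefSeq on GRCm38.p6, minus strand, 5' to 3', ending at or just before the annotated gene, with the match in capitals. Ikbke (chr1:131279607-131279813), Tbk1 (chr10:121586795-121587044) and Mb21d1 (chr9:78443238-78443487) read as follows.
Ikbke: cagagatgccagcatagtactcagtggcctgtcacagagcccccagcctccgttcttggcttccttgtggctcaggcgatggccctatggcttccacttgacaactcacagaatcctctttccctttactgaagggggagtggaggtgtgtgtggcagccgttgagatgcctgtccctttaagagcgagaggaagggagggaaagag
Tbk1: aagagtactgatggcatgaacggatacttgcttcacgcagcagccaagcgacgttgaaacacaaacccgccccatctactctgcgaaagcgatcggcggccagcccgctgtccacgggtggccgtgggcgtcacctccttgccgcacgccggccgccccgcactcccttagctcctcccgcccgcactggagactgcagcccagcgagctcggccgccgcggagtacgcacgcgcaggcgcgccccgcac
Mb21d1: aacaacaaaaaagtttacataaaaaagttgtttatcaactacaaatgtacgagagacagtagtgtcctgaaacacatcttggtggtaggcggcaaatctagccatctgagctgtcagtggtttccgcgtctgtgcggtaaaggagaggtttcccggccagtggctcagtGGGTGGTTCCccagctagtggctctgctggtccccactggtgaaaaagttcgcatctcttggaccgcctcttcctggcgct
Both strands were searched for a pair of GAAA with any 2 bases between them (an IRF core), TTC and GAA with any 3 bases between (a STAT core, the same on both strands) and GGG and TTCC with any 3 bases between (an NF-kB core). In 250 bases upstream of 32851 mouse starts, the 3 motifs were found in 2.98%, 7.02% and 4.65% respectively. Mb21d1 held 1 NF-kB core, beginning 81 bases before its start, and Ikbke and Tbk1 held none of the 3 in the bases shown. No 2 matches overlapped in these windows.

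Mb21d1, the sensor, was scarce in every class. It gave 479 UMIs in all cells, and its highest mean over libraries was 0.116 ± 0.145 (SD, n = 8) in neutrophil-like cells, from 32 UMIs. Fibroblast-like cells averaged 0.0354 ± 0.0367 (SD, n = 8) and malignant-like cells 0.0457 ± 0.124 (SD, n = 8). The malignant-like mean rests on library 3, at 0.353 from 1 UMI in 43 cells, and the other 7 libraries lay between 0 and 0.00655. The ranges of all neighbouring classes in the order of means overlapped. In monocyte/macrophage-like cells, which held 200 of these UMIs, the wild type libraries read 0.0429, 0.133, 0.0295 and 0.0220 and the deleted libraries 0.0975, 0.0578, 0 and 0.0641. The ranges overlapped, and the deleted 0 is library 7, where 211 cells held no UMI and 3 UMIs would read 0.0890. The log2 difference was -0.01 (95% interval -0.62 to 0.60).

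Tmem173, the STING adaptor, was read in 9958 UMIs and was the most abundantly counted member. Among the 7 compared classes it was highest in malignant-like cells (0.567 ± 0.137, SD, n = 8) and dendritic-like cells (0.541 ± 0.190, SD, n = 7), followed by monocyte/macrophage-like cells (0.457 ± 0.151, SD, n = 8). Fibroblast-like (0.440 ± 0.308), T-like (0.411 ± 0.0994) and NK-like cells (0.383 ± 0.0949) came next, and these 6 neighbours overlapped. Neutrophil-like cells stood below them at 0.0589 ± 0.0939 (SD, n = 8), from 12 UMIs, and each other class was above them in every library that held both (8 of 8, or 7 of 7 for dendritic-like and NK-like cells). Endothelial-like cells, with at least 20 cells only in deleted libraries 3 and 4, held 0.868 and 1.14 there, above the 0.575 and 0.863 of malignant-like cells in the same libraries.

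Tmem173 passed the test between genotypes in none of the 6 classes where it could be tested, in limma, and none had an unadjusted p under 0.05. In monocyte/macrophage-like cells the wild type libraries held 0.420, 0.589, 0.448 and 0.307 and the deleted ones 0.739, 0.508, 0.328 and 0.319, ranges that overlap. The log2 difference there was 0.05 (95% interval -0.55 to 0.64, adjusted p = 0.979). In dendritic-like cells it was -0.24 (95% interval -1.01 to 0.53, adjusted p = 0.879). The lowest estimate was in fibroblast-like cells, at -0.72 (95% interval -1.50 to 0.06, adjusted p = 0.517), where wild type libraries held only 32 to 64 cells.

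**Figure D1:**
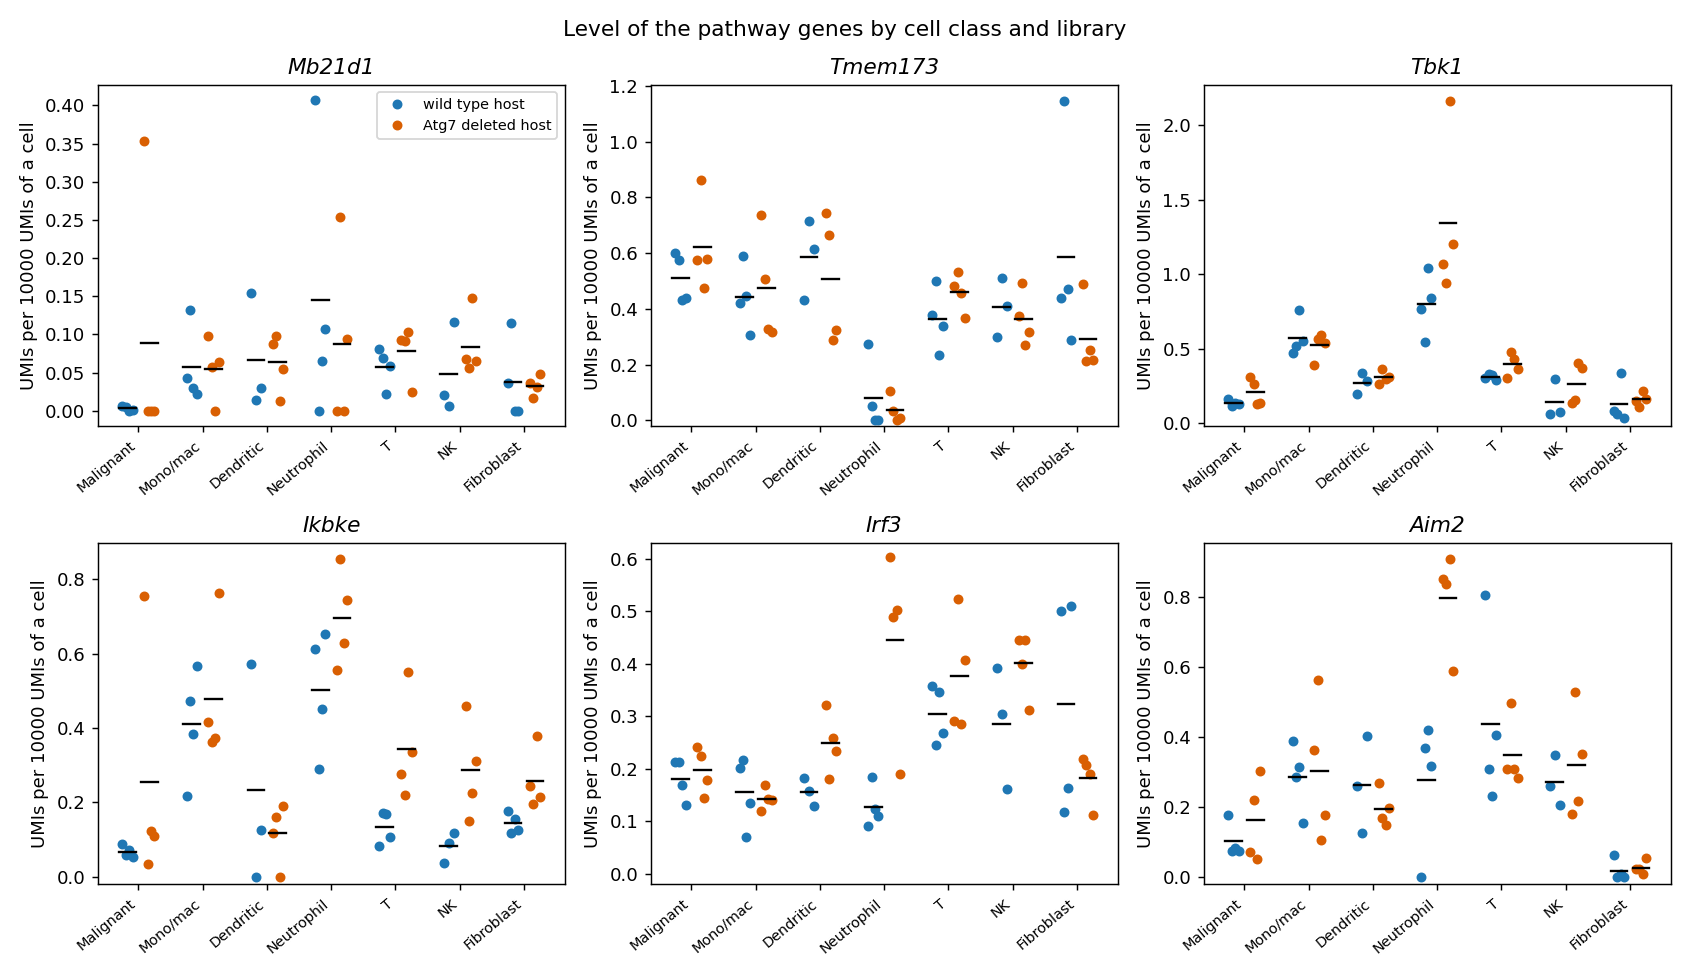
Level of 6 pathway genes (vertical axis, UMIs per 10000 UMIs of a cell) in 7 cell classes (horizontal axis), where points are libraries holding 20 or more such cells and bars are genotype means. Tmem173 sat near 0 in neutrophil-like cells, where Tbk1, Ikbke and Aim2 had their highest mean.

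Tbk1, the kinase that phosphorylates IRF3, and Ikbke, its relative, had the same 3 classes highest, in the same order of means. Tbk1 was highest in neutrophil-like cells (1.07 ± 0.486, SD, n = 8), then in monocyte/macrophage-like (0.547 ± 0.106, SD, n = 8) and T-like cells (0.352 ± 0.0682, SD, n = 8). It was higher in neutrophil-like than in monocyte/macrophage-like cells in 8 of 8 libraries, and higher in these than in T-like cells in 8 of 8. Malignant-like (0.170 ± 0.0728) and fibroblast-like cells (0.143 ± 0.0973) held the least. Ikbke also led in neutrophil-like (0.599 ± 0.173, SD, n = 8) and monocyte/macrophage-like cells (0.444 ± 0.162, SD, n = 8), in that order in 6 of 8 libraries, followed by T-like cells (0.239 ± 0.150, SD, n = 8). Below these the orders differed: fibroblast-like cells were lowest for Tbk1 and next after T-like cells for Ikbke (0.201 ± 0.0834, SD, n = 8).

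Ikbke had higher levels in deleted hosts in several classes without passing the test. In T-like cells wild type libraries held 0.0833, 0.172, 0.169 and 0.107 and deleted libraries 0.275, 0.220, 0.550 and 0.335. Every deleted library was above every wild type one, from 3 to 40 UMIs per library, as was so for 6.09% of all genes tested in that class. The log2 difference was 0.90 (95% interval 0.33 to 1.48, SE 0.27, limma adjusted p = 0.167). In NK-like cells, where library 1 held only 10 cells and was left out (as it was with 17 dendritic-like cells), the wild type libraries held 0.0375, 0.0898 and 0.117 and the deleted ones 0.460, 0.151, 0.224 and 0.311, again without overlap (5.24% of genes were higher in that way). The log2 difference there was 1.05 (95% interval 0.27 to 1.84, adjusted p = 0.319). With UMIs summed over cells in place of averaged cells it was 0.97, with an adjusted p = 0.0377, a setting under which 10.1% of all genes passed in NK-like cells against 0.675% otherwise.
Fibroblast-like cells held 0.145 ± 0.0272 (SD, n = 4) in wild type and 0.258 ± 0.0834 (SD, n = 4) in deleted hosts, without overlap (3.73% of genes), at a log2 difference of 0.53 (adjusted p = 0.525).

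2 other measures of T-like cells are given beside their Ikbke levels. The cluster led by Cd8b1 made up 65.9% ± 5.59 (SD, n = 4) of T-like cells in wild type and 20.3% ± 5.56 (SD, n = 4) in deleted hosts. A second CD8 cluster, led by Cd8a, made up 12.3% ± 4.65 and 12.1% ± 7.68. Its marker score was 0.695 for T cells and 0.685 for monocytes and macrophages. The Cd4-led cluster made up 10.3% ± 3.03 and 44.7% ± 12.7. Inside the Cd8b1-led and Cd4-led clusters the log2 difference of Ikbke was 0.68 (limma adjusted p = 0.700, without library 7, which held 14 such cells) and 1.15 (adjusted p = 0.564, without library 1, which held 4). Markers of monocytes and macrophages, cells in which Ikbke was higher, summed to 10.7 to 21.9 in wild type and 4.75 to 35.7 in deleted T-like libraries, with 7 to 11 of 11 markers seen. In NK-like cells they summed to 8.12 to 14.5 and 9.27 to 38.2, and in fibroblast-like cells to 1.41 to 8.33 and 0.981 to 17.9. Their part in the differences was not tested.

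Irf3, the transcription factor, had its highest means in NK-like (0.351 ± 0.101, SD, n = 7) and T-like cells (0.340 ± 0.0910, SD, n = 8). Its lowest mean was in monocyte/macrophage-like cells (0.149 ± 0.0460, SD, n = 8), below T-like cells in 8 of 8 libraries. In neutrophil-like cells the wild type libraries held 0.0908, 0.184, 0.123 and 0.110 and the deleted ones 0.603, 0.488, 0.503 and 0.190. All deleted libraries were above all wild type ones, from 80 UMIs in total and 1 in library 7, as were 6.12% of genes in this class. The log2 difference was 1.21 (95% interval 0.18 to 2.24, limma adjusted p = 0.339).

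Aim2, the inflammasome sensor, was highest in neutrophil-like cells (0.536 ± 0.318, SD, n = 8) and T-like cells (0.393 ± 0.186, SD, n = 8) and nearly absent from fibroblast-like cells (0.0230 ± 0.0243, SD, n = 8, 54 UMIs). In neutrophil-like cells wild type libraries held 0, 0.369, 0.419 and 0.316 and deleted libraries 0.850, 0.837, 0.908 and 0.588. The groups did not overlap, as for 6.12% of genes higher in this class. The counts were small: the wild type 0 is a library of 65 cells where 3 UMIs would read 0.333, and the deleted 0.908 is 2 UMIs in 39 cells. The log2 difference was 1.48 (95% interval 0.43 to 2.53, limma adjusted p = 0.264), and the median over all genes of these cells was itself 0.25. Neutrophil markers summed to 474 to 739 in wild type and 239 to 524 in deleted libraries of the class, and its median depth was 1004.5 ± 247 and 1282 ± 460 UMIs per cell. Whether these bear on Aim2 and Irf3 was not tested.

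Trex1 had rows only in libraries 5, 6 and 8, with 9, 55 and 4 UMIs, so it entered no comparison. It lies inside the span of Atrip on the same strand, which was listed in every library with 36 to 701 UMIs, and reads of the 2 genes may not be separable. On GRCm38 it lies at chromosome 9, 109057933 to 109059734. Irf3 (chromosome 7, 44997648 to 45002848) overlaps Bcl2l12 and Aim2 (chromosome 1, 173350879 to 173466040, plus strand) overlaps Cadm3, both on the opposite strand in GENCODE M21.

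Of the 38 member tests over the 7 classes (limma, Benjamini-Hochberg adjustment over all genes of a class) none passed, with a lowest adjusted p of 0.167 for Ikbke in T-like cells. With the barcode set as a block none passed either, and that p was 0.0556. At an unadjusted p under 0.05 there were 4 (10.5% of the tests), against 10.5% of 61153 gene by class tests. Among all genes, 0.191% passed in malignant-like, 0.0113% in monocyte/macrophage-like, 0.131% in dendritic-like, 0.202% in neutrophil-like, 0.653% in T-like, 0.675% in NK-like and 0.102% in fibroblast-like cells. The genotype effect on a member did not differ between any 2 classes past the threshold in 103 tests over 21 pairs, where the lowest adjusted p was 0.215 and 12 had an unadjusted p under 0.05.

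**Figure D2:**
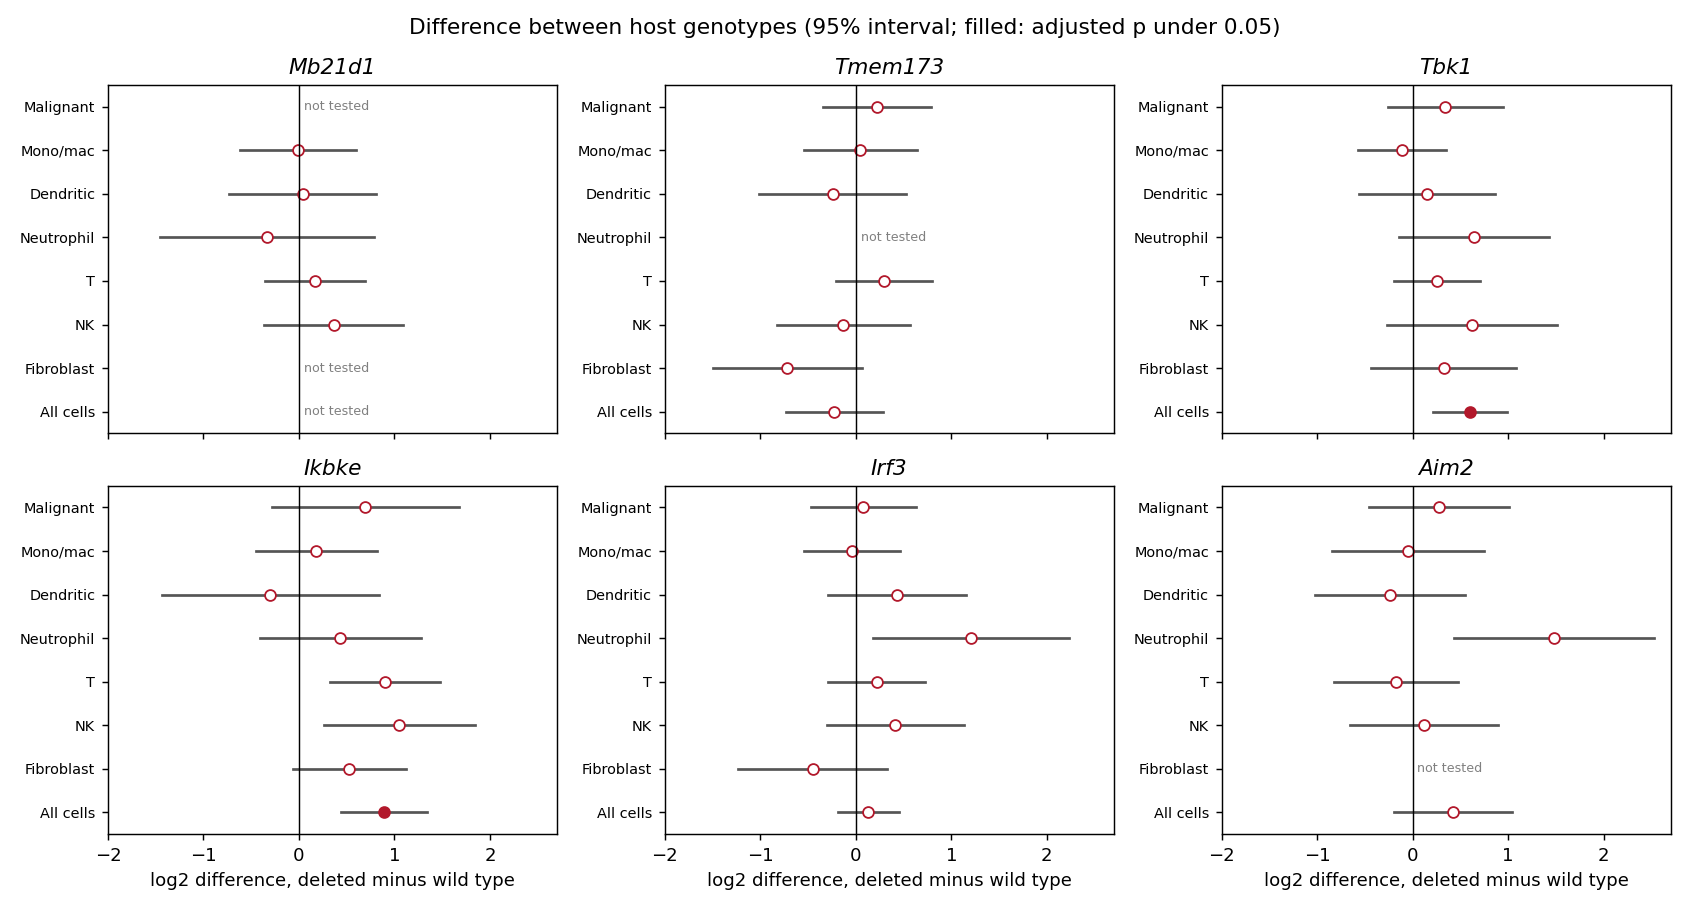
Log2 difference in level, deleted minus wild type hosts, on the horizontal axis, by cell class and over all cells on the vertical axis, in a panel for each of 6 pathway genes, with 95% intervals from limma. Filled points, those with an adjusted p under 0.05, are Ikbke and Tbk1 over all cells.

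Over all cells of a library Ikbke and Tbk1 were higher in deleted hosts, and both differences shrank when the mix of cell classes was held. Wild type libraries read 0.149, 0.223, 0.130 and 0.206 for Ikbke, against 0.379, 0.337, 0.343 and 0.615 in deleted libraries. All deleted libraries were above all wild type ones, as for 13.5% of genes. Its log2 difference was 0.89 (SE 0.20, limma adjusted p = 0.0147). Tbk1 read 0.285, 0.293, 0.271 and 0.277 against 0.374, 0.506, 0.413 and 0.658, with a log2 difference of 0.60 (SE 0.17, limma adjusted p = 0.0369). In the same fit 21.3% of 10056 genes passed, with 10.4% of all genes passing as higher in deleted hosts, against 2 of the 5 members tested. Tmem173 (-0.23, adjusted p = 0.499), Irf3 (0.13, adjusted p = 0.531) and Aim2 (0.43, adjusted p = 0.288) did not pass.

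With levels of 5 classes weighted by the same share in every library, the log2 difference was 0.46 for Ikbke (95% interval 0.02 to 0.90, adjusted p = 0.443) and 0.20 for Tbk1 (95% interval -0.19 to 0.59, adjusted p = 0.755), in a fit where 0.11% of genes passed. Malignant-like cells had a weight of 33.5% in it, and the Ikbke level of library 3 in those cells, 0.755, came from 4 UMIs in 43 cells. Without malignant-like cells it was 0.33 for Ikbke (adjusted p = 0.604) and -0.003 for Tbk1 (adjusted p = 0.996). In that fit 0.0205% of genes passed. Tbk1 then read 0.452, 0.441, 0.621 and 0.486 in wild type against 0.375, 0.522, 0.450 and 0.669 in deleted libraries, ranges that overlap. Malignant-like cells, which had low mean levels of both kinases, made up most wild type and few deleted cells. As a cause of the differences this was not tested. Within the 2 barcode sets Ikbke differed by 0.69 and 1.08 and Tbk1 by 0.46 and 0.74 over all cells. Tbk1 passed without library 3 or 7 and missed the threshold without library 1, 2, 4, 5, 6 or 8, with adjusted p from 0.0575 to 0.0897 in limma.

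**Figure D3:**
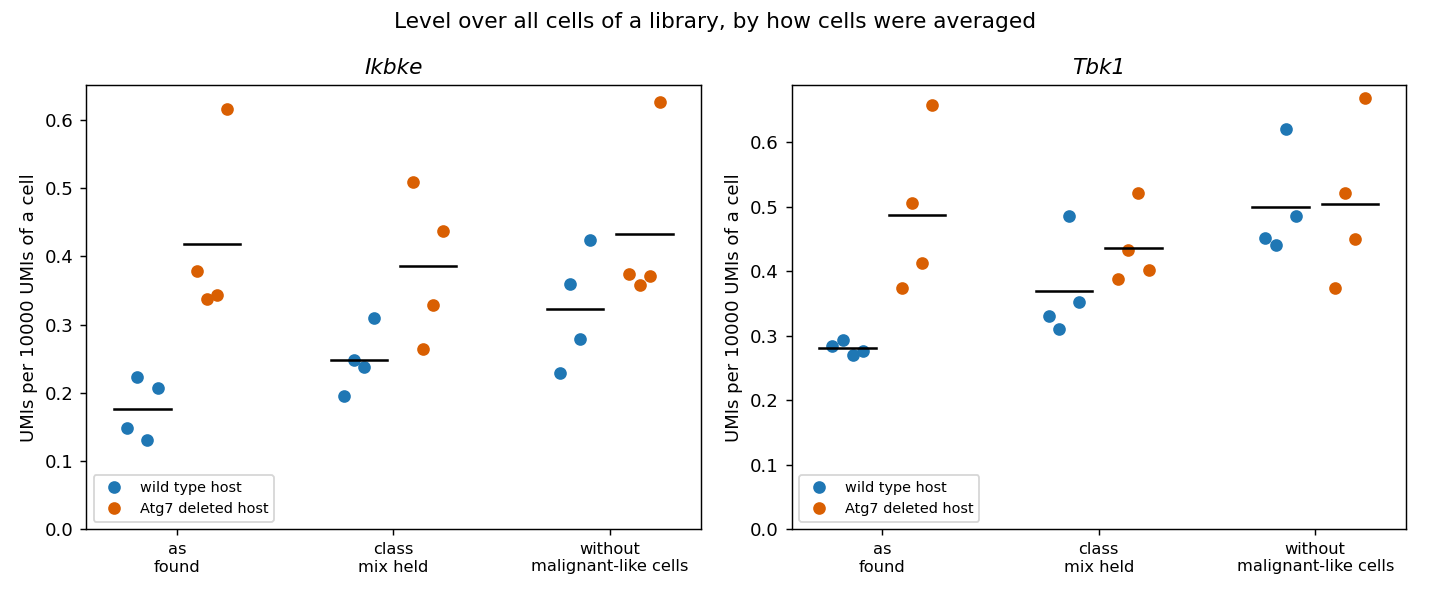
Level of Ikbke and Tbk1 per library (vertical axis, UMIs per 10000 UMIs of a cell) over all cells as found, with the class mix held, and without malignant-like cells (horizontal axis); points are libraries and bars genotype means. The gap for Tbk1 closed without malignant-like cells.

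Other genes of the pathway were followed in 6 lists of 90 genes, 88 of which had a row. Over all cells 12 of 83 tested passed in limma, 7 higher and 5 lower in deleted hosts, against 21.3% of all genes. Traf3, an adaptor of these kinases, rose (log2 1.03, adjusted p = 0.00717), as did Unc93b1, a chaperone of endosomal nucleic acid receptors (1.81, adjusted p = 0.00764), and Samhd1, a nucleotide hydrolase (0.92, adjusted p = 0.0212). Banf1, a DNA-binding competitor of cGAS, fell (-1.55, adjusted p = 0.0150), as did the RNase H2 subunits Rnaseh2a (-0.59, adjusted p = 0.0211) and Rnaseh2c (-0.78, adjusted p = 0.0236) and the NF-kB subunit Nfkb2 (-0.92, adjusted p = 0.0151). Stim1, a retention factor of STING (0.68, adjusted p = 0.0264), Irf5 (0.64, adjusted p = 0.0280) and Ikbkb (0.55, adjusted p = 0.0297) rose. Without library 1, 3, 4, 5 or 6 the number passing was 7, 5, 6, 6 or 7, and without library 7 it was 14. With the barcode set as a block it was 22, with summed UMIs 30 and with median-ratio scaling 33. Calls over all genes rose with the block as well. They reached 3950 with median-ratio scaling, the most of any setting, against 2143 in the fit above. With the class mix held, or without malignant-like cells, none passed.

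Of the 15 listed targets of IRF3, genes that interferon also induces, the medians lay below 0 in 6 classes and above 0 in malignant-like cells. In dendritic-like cells 11 of 12 tested were lower in deleted hosts on average, where 59.2% of all genes were above 0. The median log2 difference was -0.97 against 0.10 for all genes. In 7 of the 12 no library overlapped (3.22% of all genes were lower in that way). Isg15 averaged 12.1 ± 9.12 (SD, n = 3) in wild type and 2.55 ± 1.36 (SD, n = 4) in deleted dendritic-like cells, a log2 difference of -2.11 (limma adjusted p = 0.0806). Ifit1 there was -1.74 (adjusted p = 0.0702), and none of the 12 passed, with 9 at an unadjusted p under 0.05. Over the 7 classes together 10.5% of gene by class tests were under it. With the barcode set as a block 2 passed, in a fit where 41 of all genes passed against 11 without it. Leaving out library 7 or library 8, 1 passed. Across all settings 0 to 41 of all genes passed in dendritic-like cells. The median depth of dendritic-like cells was 3676 ± 825 (SD, n = 3) UMIs per cell in wild type and 6565 ± 2462 (SD, n = 4) in deleted libraries. The wild type libraries held 54 to 107 such cells. Whether these bear on the targets was not tested. Monocyte/macrophage-like cells gave 13 of 14 below 0 and a median of -0.67, against 0.05 for all genes, of which 57.4% were above 0. None of the 14 passed in limma, and 7 had an unadjusted p under 0.05. In 2 of the 14 the libraries did not overlap, as for 2.24% of all genes lower in that class. Ifnb1, the interferon beta gene itself, gave 176 UMIs in all, of which 138 were in monocyte/macrophage-like cells, and its log2 difference there was -0.66 (adjusted p = 0.633).

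In T-like cells 2 IRF3 targets passed and fell: the chemokine Ccl5 from 78.4 ± 23.9 to 19.3 ± 6.52 (SD, n = 4 each; log2 -2.05, limma adjusted p = 0.0291) and Ifit3 from 0.305 ± 0.0137 to 0.0800 ± 0.0638 (SD, n = 4 each; log2 -1.23, limma adjusted p = 0.0473). The 2 genes were among 11 listed targets and 76 list genes tested in that class, where 0.653% of all genes passed. The fall in Ccl5, which CD8 cells express, stands beside the lower share of the Cd8b1-led cluster given above. The part of that share was not tested. With the barcode set as a block the adjusted p was 0.000362 for Ccl5 and 0.010 for Ifit3, and with summed UMIs 0.0857 and 0.150. Ccl5 missed the threshold without library 1, 2, 3, 6, 7 or 8, at log2 differences of -1.80 to -2.21 over all 8 omissions, and Ifit3 without any of the 8, at -1.13 to -1.45. In malignant-like cells all 11 tested targets were above 0, as were 43.5% of all genes. Their median log2 difference was 0.89 against -0.06 for all genes. None passed, and 6 had an unadjusted p under 0.05, against 10.5% of gene by class tests over the 7 classes together. With the barcode set as a block 2 passed, with summed UMIs 1, with median-ratio scaling 2 and without library 7 there was 1. Over all genes the number passing in this class ran from 0 to 898 across settings, against 18 as reported. That class held 403 cells in deleted against 10004 in wild type libraries. Its median depth was 6029 ± 6211 and 14150 ± 3118 UMIs per cell, and monocyte/macrophage markers in it summed to 0.345 to 12.1 and 0.407 to 2.999. Their part was not tested.

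**Figure D4:**
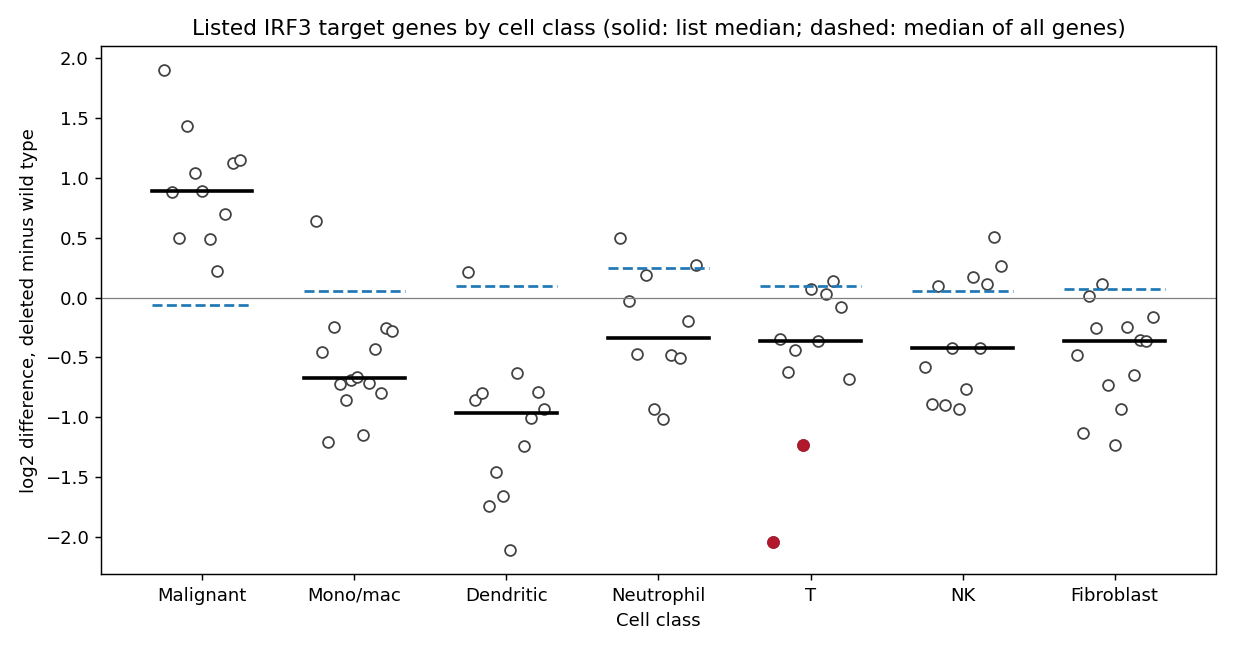
Log2 difference, deleted minus wild type hosts (vertical axis), of the listed IRF3 targets tested in each of 7 cell classes (horizontal axis), one point a gene. Solid bars are list medians, dashed bars the median of all genes and filled points adjusted p under 0.05 (Ccl5 and Ifit3 in T-like cells).

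The genes most like each member were taken over 54 class by library profiles among 8147 genes, as descriptions across profiles that share libraries. For Tmem173 they were Tagln2, Vdac3 and Tmem256 (Pearson r of 0.87, 0.84 and 0.84), and for Tbk1 Tmbim6, N4bp1 and Hk3 (0.89, 0.87 and 0.86). Ikbke was followed by Slc43a2, Fpr2 and Slc11a1 (0.73, 0.73 and 0.72) and Aim2 by Dgkz, Zdhhc18 and Psd4 (0.74, 0.73 and 0.72). Irf3 had Sltm, Zyg11b and Zfp646 (0.73, 0.66 and 0.66), and Mb21d1, with the fewest UMIs, had Btbd9, Vps39 and Tmem127 (0.58, 0.57 and 0.56).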

How the data were processed

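Processed matrices of 8 single-cell libraries were used. Per the labels' protocols they came from a 5' droplet kit, and Cell Ranger 2.1, Seurat 3.0 and the build mm10 are listed in the submitters' processing notes. The deposited values are natural log (ln) values of 1 plus UMIs per 10000 UMIs of a cell, as the values themselves show, and whole UMIs were recovered from all of them within a tolerance of 0.01 UMI (times the UMI number above 1 UMI). A cell was kept if it had at least 200 genes and at most 10% of UMIs from mitochondrial genes, which removed 919 of 29496. Doublets were not removed, and 4.23% of kept cells had over 4500 genes. Cells were clustered in scanpy 1.11.5 (2000 variable genes, none of them a member, 30 components, Leiden resolution 1) and clusters named from marker lists, so names are rebuilt. A cluster with no own marker among its leading genes and a second class scoring over 0.9 of the best stayed unnamed, a rule set after seeing the data. Clusters with more leading markers of another class than of their own stayed unnamed too. The same held for clusters with under 3 markers seen, or with low depth and no own leading marker.

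Levels of a class needed 20 cells per library and 3 libraries per genotype. limma 3.58.1 with a trended prior was run on log2(level + 0.1) for genes with a mean level of 0.05 and 20 UMIs, with Benjamini-Hochberg adjustment over all genes of a class. Fold changes on this scale understate the change of low genes. Symbols listed in 1 barcode set only (1390 and 866) were not tested. The script was tested on simulated data. All members were named, then list genes past the threshold (at most 10 per class), Atg7 and the 3 genes most like each member. The members and lists were chosen with earlier results of these data known. Intervals cover the spread between libraries.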

Additional observations from a re-analysis of the deposited data

Results flagged for a closer look

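Of 74 groups of 4 libraries, 9 held a library far from the other 3 by Dixon's criterion at 95%, which chance meets in about 1 in 20 groups. For Ikbke it was library 8 over all cells (0.615, with the next highest at 0.379) and in monocyte/macrophage-like cells (0.762 against 0.415), and library 3 in malignant-like cells, at 0.755 from 4 UMIs in 43 cells. For Mb21d1 it was library 8 in T-like cells (0.0240, from 7 UMIs) and library 7 in NK-like cells (0.148, from 4 UMIs). Tmem173 in fibroblast-like cells was 0.491 in library 3, which held 901 such cells, with the next highest deleted library at 0.253. Tbk1 in wild type fibroblast-like cells was 0.337 in library 5, from 6 UMIs in 53 cells. Aim2 was 0.176 in malignant-like cells of library 1, with 0.0834 the next highest, and 0.498 in T-like cells of library 4, with 0.308 the next highest.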

How the results depend on the processing

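No paired analysis was possible because the groups share no replicate numbers. Each barcode set held both genotypes, however, and a fit blocked on the set gave 0 member calls in the classes and 2 over all cells, as without it, while calls over all genes rose in every class and over all cells (to 3508 over all cells, 291 in T-like, 91 in monocyte/macrophage-like and 41 in dendritic-like cells). Of 363 recomputed class differences of the members, 322 kept their direction and side of the threshold, 39 reversed and 2 passed, and of 292 without 1 library 28 reversed; 77 of 78 recomputed levels stayed within 1 SD, and Tmem173 in T-like cells moved from 0.411 to 0.600 at resolution 0.5, where the class is a different set of cells (205 led by Trdc and 160 by Foxp3) and a cluster of 2632 cells led by Nkg7 and Gzma stayed unnamed. At resolution 0.5 a cluster of 2459 cells led by Mmp12 also stayed unnamed, with 1103 cells in library 3 and 1276 in library 4. Its best marker score was for monocytes and macrophages, so that class lacks these cells there. Summed UMIs gave 2 member calls in the classes. Of these, 1 was Ikbke in NK-like cells, where 10.1% of all genes passed under that setting. Over all cells the 2 member calls became 0 with the class mix held, 0 without malignant-like cells, and 1 each with the same 5 classes as found, the mean of log values and thinning to 1000 UMIs, and 1 to 2 without 1 library. Ikbke over all cells was 0.46 with the mix held and 0.33 without malignant-like cells. Tbk1 was 0.20, -0.0030, 0.60 (same 5 classes), 0.083 (mean of log values) and 0.60 (thinned), and 0.47 to 0.70 without 1 library. The mix settings, and those with the unnamed cluster, were chosen after seeing the data.

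Reversals over all cells were Aim2 at -0.035 without malignant-like cells, Irf3 at -0.015 by the mean of log values and Tmem173 at 0.045 with the mix held. By the mean of log values they were Tmem173 in dendritic-like (0.035), malignant-like (-0.048) and NK-like cells (0.027), Aim2 in malignant-like (-0.0047) and monocyte/macrophage-like cells (0.025), Irf3 in the same 2 classes (-0.031 and 0.00045) and Tbk1 in monocyte/macrophage-like cells (0.0055). With summed UMIs they were Aim2 (0.048), Ikbke (0.13) and Tmem173 (0.047) in dendritic-like, Irf3 in monocyte/macrophage-like (0.056), Tmem173 in NK-like (0.18) and Mb21d1 in T-like cells (-0.070). With median-ratio scaling the same order of classes gave Ikbke 0.074 and Tbk1 -0.056, Irf3 0.023, Tmem173 0.030 and Mb21d1 -0.14. Thinning gave, in dendritic-like cells, Aim2 0.023, Mb21d1 -0.24, Tbk1 -0.75 and Tmem173 0.44, in malignant-like cells Aim2 -0.32, in monocyte/macrophage-like cells Tmem173 -0.43, and in NK-like cells Aim2 -0.067 and Tmem173 1.24. Mb21d1 in dendritic-like cells was -0.087 with a barcode set term and -0.00038 with a pseudocount of 0.5, which gave Aim2 0.0034 in monocyte/macrophage-like cells. In those cells the unnamed cluster gave Irf3 0.019 and Tmem173 -0.033, cluster 11 alone Aim2 0.43, Mb21d1 0.23 and Tmem173 -0.049, and cluster 12 alone Irf3 0.30. In T-like cells Aim2 was 1.10 in cluster 21, and Tbk1 was -0.27 at resolution 0.5 and -0.089 in cluster 15. The cause was not tested for any of these.

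Without 1 library, dendritic-like cells gave Aim2 -0.54 to 0.033, Ikbke -0.95 to 0.42, Mb21d1 -0.19 to 0.39 and Tbk1 -0.012 to 0.28. Monocyte/macrophage-like cells gave Aim2 -0.34 to 0.23, Ikbke -0.029 to 0.33, Irf3 -0.22 to 0.078, Mb21d1 -0.14 to 0.20, Tbk1 -0.19 to 0.0096 and Tmem173 -0.15 to 0.18. NK-like cells gave Aim2 -0.099 to 0.29 and Tmem173 -0.29 to 0.017, T-like cells Aim2 -0.37 to 0.11, malignant-like cells Irf3 -0.014 to 0.17 and neutrophil-like cells Mb21d1 -0.71 to 0.10.

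The number of all genes passing ran from 2 to 3950 over all cells (2143 as reported), 0 to 41 in dendritic-like (11), 3 to 26 in fibroblast-like (10), 0 to 898 in malignant-like (18), 0 to 91 in monocyte/macrophage-like (1), 0 to 75 in neutrophil-like (13), 8 to 916 in NK-like (61) and 0 to 291 in T-like cells (60). Intervals cover the spread between libraries, and members with few UMIs per library, Mb21d1 above all, are limited by counting.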
